A study of Arabidopsis thaliana with 12 samples.

Results

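An array probe binds every transcript that is close enough to it in sequence, so an array's gene annotation can list more than 1 gene for a probe. The signal of such a probe belongs to its genes together. Among the 3439 probes of the array, 648 were annotated to exactly 2 genes, 692 to 1 gene, 222 to 3 or more and 1877 to none. The account here is about 44 of the 648, chosen by their deposited intensity, which had to be 0.5 or more in all 12 arrays. These 44 probes carry 44 distinct gene pairs and 88 distinct genes, and each is named below by both loci, as the signal of the pair and not of either gene. The rule used the intensity in every array, so brightness describes the members and tests nothing. It also keeps out any pair that is dim in either tissue, which limits how large a tissue difference among the members can be.

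The plants were wild-type Arabidopsis thaliana of the Columbia 0 ecotype, and total RNA was measured in 6 samples of leaves and 6 of stem material, numbered 1 to 6 in each tissue. All samples share genotype and ecotype. The labels name no treatment, plant age, stem position or pooling, and they do not say that samples came from separate plants. The p-values therefore reflect no more than how these samples vary, and that variation may be technical. In whole organs, fewer cells of a type and less RNA per cell cannot be told apart.

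The Arabidopsis genome holds many duplicated genes. Tandem duplication leaves copies side by side on a chromosome, and old duplications of whole chromosome stretches left copies on different chromosomes that can still be alike in sequence. Green leaves and green stems both photosynthesise, and stems add vascular and supporting tissue. Among the members with a name, several act in the chloroplast, the compartment that captures light and makes chlorophyll.

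The samples were not evenly alike. Rank correlations were taken over 625 probes with 12 values, chosen by their mean normalized intensity and not by the limit of 0.5. They were 0.94 between neighbouring leaf numbers (1 and 2, 3 and 4, 5 and 6) and 0.97 to 0.99 between neighbouring stem numbers. The correlations of leaf 1 and 2 were 0.66 to 0.71 with the other leaf samples and 0.63 to 0.77 with stem samples. Those of the other leaf samples with stem were 0.46 to 0.56. Results are therefore also given for neighbours averaged and without numbers 1 and 2. The tissue labels could be checked little: of 15 marker loci of green tissue 2 had a probe, and of 19 loci of stem wall, lignin and wax 0 had one. The green-tissue marker RCA, Rubisco activase, sits on a 2-gene probe with AT1G73110 that was too dim in stem to be a member, with intensities of 0.649 to 1.09 in leaf and 0.181 to 0.486 in stem (limma difference -1.91 on the log2 scale, adjusted p = 1.7e-05). A further probe of the same loci lay between 0 and 0.00992 in all 12 arrays. The other marker locus, AT2G34420 (a light-harvesting chlorophyll-binding protein), read 39.3 to 55.2 in leaf against 22.5 to 33.8 in stem and did not pass after normalization (adjusted p = 0.38). No marker locus was in a member pair, and the part of these differences in the results was not tested.

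The pairs were mostly not neighbours in the genome. In the gene order of the TAIR10.1 RefSeq table, 30 of the 44 pairs (68.2%) joined genes on different chromosomes, against 443 of 644 (68.8%) of all 2-gene probes whose loci are both in that table. Another 8 pairs were on the same chromosome but further apart, 2 had 1 to 5 genes between them and 4 were adjacent, with no gene between. Of those further apart, AT4G03830 / AT4G03940 had 24 genes between, of which only 1 was protein-coding. The adjacent pairs were AT4G12510 / AT4G12520, AT4G36190 / AT4G36195, AT5G53260 / AT5G53270 and AT5G54350 / AT5G54360. They made up 9.09% of the members and 7.45% of all 2-gene probes. AT4G20830 / AT4G20840 had 1 gene between and AT3G50140 / AT3G50190 had 4. These shares are descriptions and were not tested.

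Chromosome 4 was the exception in these counts. A gene of chromosome 4 was in 26 of 44 pairs (59.1%), against 209 of 644 (32.5%) of all 2-gene probes. Both genes were on chromosome 4 in 9 of the members (20.5%) and in 45 of all 2-gene probes (6.99%). The shares of the other chromosomes were lower among the members than among all 2-gene probes, from 22.7% for chromosome 2 to 31.8% for chromosome 5. This is a description of probes chosen for brightness, and the difference was not tested. Stretches of 20 genes to either side that were also joined by another 2-gene probe of the array were found for 3 of 37 members far enough apart to be examined (8.11%) and for 93 of 564 of all 2-gene probes (16.5%).

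A shared family could be read only from names. In 3 pairs both genes carry a name and the names have a common stem: LIL3:1 (AT4G17600) / LIL3:2 (AT5G47110), ATPC2 (AT1G15700) / ATPC1 (AT4G04640), and AT4G01150 / AT4G38100, which the gene table also lists as CURT1A and CURT1D. That is 6.82% of the members and 6.33% of all 2-gene probes. In all 3 the genes lie on different chromosomes or, for the CURT1 pair, far apart on chromosome 4. The reading took only names that hold a digit or a colon. In the other 41 pairs it found no common stem, and likeness of their sequences was not analysed here.

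For the comparison of stem with leaf, differences are stem minus leaf in log2 of quantile-normalized intensity, fitted in limma over all 2657 tested probes, and a pair counts as called at an adjusted p under 0.05. Of the 44 pairs, 17 were called, 6 higher and 11 lower in stem, and 27 did not pass. Over all tested probes 24.2% were called, 14.1% as higher and 10.1% as lower. Bright probes were called more often: of all 308 probes at 0.5 or more in every array, 123 (39.9%) were called, 15.6% as higher and 24.4% as lower. Of the 52 such probes with 1 gene, 44.2% were called. The members' share of 38.6% is near these shares of bright probes, so it is no result about 2-gene probes. The median difference was -0.052 over the members, -0.14 over all bright probes and 0.13 over all tested probes.

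The balance of rises and falls depended on the scaling. With each array centred on its median, 1 pair was higher and 16 were lower in stem, where 9.67% and 11.9% of all tested probes were called in these directions, and the members' median moved to -0.609. Of all bright probes, 2.6% were called higher and 44.2% lower with this centring, and their median moved likewise, to -0.64. Rises thus made up 35.3% of the members' calls in quantile-normalized values and 5.88% with median centring. The values of AT4G38150 / AT5G03560 kept their call as higher in both.

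Of the 6 pairs with a named chloroplast gene, a grouping made after their values were seen, 2 were lower in stem and 4 did not pass. The grouping rests on names, and whether pairs known by locus alone also hold chloroplast genes was not examined. The group may therefore be incomplete, and pairs outside it include rises as well as falls. Nothing is read from that count beside the 24.4% of bright probes called lower. AT3G25480 / TROL (AT4G01050) holds TROL, a thylakoid membrane protein that tethers the enzyme reducing NADP at the end of photosynthetic electron flow. Its deposited intensity was 1.01, 1.1 and 1.26 in leaf (lowest, median and highest of 6) and 0.539, 0.609 and 0.68 in stem. All leaf samples were above all stem samples, and the difference was -1.19 ± 0.23 (SE, adjusted p = 0.0022), or 2.29-fold lower. LIL3:1 / LIL3:2 encode light-harvesting-like proteins that work in chlorophyll synthesis. Their probe was at 1.14, 1.36 and 1.64 in leaf and at 0.636, 0.968 and 1.09 in stem, apart in deposited values but overlapping after normalization. It was lower in stem by 1.73-fold (-0.79 ± 0.225, adjusted p = 0.020). Within numbers 1 and 2 its difference was -0.147, within 3 and 4 it was -0.70 and within 5 and 6 it was -1.53. Without number 4, 5 or 6 it missed the threshold, with an adjusted p of 0.05 to 0.096.

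The other pairs of this group overlapped between tissues. ATPC2 / ATPC1 encode the gamma subunit, the rotating shaft of the chloroplast ATP synthase, and their probe was at 1.01, 1.25 and 1.41 in leaf and 0.743, 1.04 and 1.32 in stem. The difference was -0.43 ± 0.255 (adjusted p = 0.23). It was -0.64 (adjusted p = 0.030) without numbers 1 and 2. AT4G01150 / AT4G38100, the CURT1 pair, stands for proteins that bend thylakoid membranes at the edges of their stacks. Its probe was at 2.52, 2.77 and 4.02 in leaf and 1.91, 2.25 and 3.76 in stem, with the highest values of each tissue in samples 1 and 2. The difference was -0.12 ± 0.24 (adjusted p = 0.74). FUG1 (AT1G17220) / AT4G11160, with a translation initiation factor of the chloroplast, differed by 0.09 ± 0.17 (adjusted p = 0.73) and had leaf values of 0.585 to 0.667. Its difference was -0.17 with median centring. AT3G06980 / RH39 (AT4G09730), with an RNA helicase that matures chloroplast ribosomal RNA, differed by 0.42 ± 0.21 (adjusted p = 0.17), with 0.694 to 1.35 in leaf and 0.918 to 2.07 in stem.

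The other pairs with a named gene were of different kinds. AT1G20500 / 4CL8 (AT5G38120), with a gene named as a coumarate-CoA ligase, the enzyme type that feeds lignin and flavonoid synthesis, was higher in stem. Its intensity was 0.571, 1.05 and 1.70 in leaf and 1.72, 1.99 and 2.23 in stem, so the groups did not overlap but came close. The rise was 1.88-fold (0.91 ± 0.22, adjusted p = 0.0082). It was uneven, with 1.15, 0.276 and 1.31 within the 3 pairs of numbers, and 0.416 (adjusted p = 0.28) with median centring. UFO (AT1G30950) / AT5G15710 holds UFO, an F-box protein of flower development. Its probe was at 0.87, 2.32 and 2.68 in leaf and 0.992, 1.48 and 1.80 in stem, and the lowest samples of both tissues were numbers 1 and 2. The difference was -0.41 ± 0.26 (adjusted p = 0.28), and it was -0.67 (adjusted p = 0.0082) without those numbers.

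The other rises belong to pairs known by locus alone. AT4G38150 / AT5G03560 differed most, with leaf intensities of 1.14, 1.97 and 5.06 and stem intensities of 8.65, 10.7 and 14.0. Leaf 1 and 2, at 4.73 and 5.06, were the highest leaf samples and still below every stem sample. The rise was 5.80-fold (2.54 ± 0.315, adjusted p = 1.1e-04), with 1.89, 2.92 and 2.8 within the 3 pairs of numbers. AT4G12000 / AT4G22850 showed the same kind of split: leaf samples 1 and 2 were at 48.4 and 49.1, inside the stem range of 40.1 to 68.8, and leaf samples 3 to 6 were at 9.57 to 12.8. Its rise of 3.06-fold (1.61 ± 0.42, adjusted p = 0.013) was 0.31 within numbers 1 and 2, 2.21 within 3 and 4 and 2.33 within 5 and 6. Without number 5 or 6 its adjusted p was 0.056 and 0.053, and with median centring it was 0.16. AT2G18900 / AT3G26480 was even across the numbers, with 1.19, 1.33 and 1.54 in leaf and 2.66, 3.35 and 3.65 in stem. The tissues were fully apart, and the rise was 2.45-fold (1.295 ± 0.17, adjusted p = 2.0e-04), or 0.68 (adjusted p = 0.093) with median centring.

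Rises that depended most on the setting were those of AT2G26500 / AT5G35660 and AT2G43470 / AT3G07565. The first had 3.58, 4.23 and 9.81 in leaf and 5.78, 8.73 and 12.8 in stem. Leaf samples 1 and 2 lay inside the stem range, and the difference of 0.84 ± 0.29 (adjusted p = 0.047) did not pass once sample number entered as a block (adjusted p = 0.063). It was 0.175, 1.92 and 0.427 within the 3 pairs of numbers, so numbers 3 and 4 carried most of it. It was 0.075 (adjusted p = 0.89) with median centring and 0.65 (adjusted p = 0.091) in deposited values. Leaving out any of numbers 3 to 6 ended the call, with 0.55 (adjusted p = 0.19) without number 4. The other pair had 0.83, 0.987 and 1.33 in leaf and 1.48, 1.54 and 2.20 in stem, apart in deposited values. Its difference of 0.65 ± 0.22 (adjusted p = 0.043) was 0.19 (adjusted p = 0.65) with median centring. It also lost its call when any of numbers 2 to 6 was left out.

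Of the falls, AT4G01650 / AT5G08720 had the largest size. Its probe was at 6.44, 6.95 and 8.11 in leaf and 1.2, 1.4 and 1.71 in stem. The tissues did not come near each other, and the pair was 4.82-fold lower in stem (-2.27 ± 0.14, adjusted p = 1.1e-07). Within the 3 pairs of numbers the difference was -2.02, -2.23 and -2.56. AT4G10810 / AT4G24026 was at 28.3, 29.7 and 34.5 in leaf and 8.40, 9.21 and 9.89 in stem. It was 2.51-fold lower after normalization (-1.33 ± 0.13, adjusted p = 1.1e-05) and differed by -1.74 in the deposited values. AT2G18980 / AT4G30170 was at 1.53, 2.22 and 2.48 in leaf and 0.626, 0.776 and 0.843 in stem. It was 3.11-fold lower (-1.64 ± 0.22, adjusted p = 2.1e-04), with no overlap.

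The falls included a pair of adjacent genes and a pair with 4 genes between. The adjacent AT4G12510 / AT4G12520 was at 0.882, 1.94 and 2.36 in leaf and 0.536, 0.815 and 1.08 in stem. Leaf samples 1 and 2 lay within the stem range of deposited values, while after normalization the tissues did not overlap. The difference was -1.205 ± 0.23 (adjusted p = 0.0022). AT3G50140 / AT3G50190 was at 1.26, 1.51 and 1.78 in leaf and 0.659, 0.838 and 0.883 in stem, fully apart, with a difference of -1.16 ± 0.22 (adjusted p = 0.0025). The other adjacent pairs did not pass: AT5G54350 / AT5G54360 differed by -0.42 ± 0.15 (adjusted p = 0.051), AT5G53260 / AT5G53270 by 0.51 ± 0.25 (adjusted p = 0.16) and AT4G36190 / AT4G36195 by -0.06 ± 0.18 (adjusted p = 0.84). The deposited values of AT5G54350 / AT5G54360 did not overlap, with 7.30 to 10.4 in leaf and 4.91 to 5.91 in stem. Its fall passed in several other settings: it was -0.63 (adjusted p = 0.0033) in deposited values, -1.20 (adjusted p = 0.0030) with median centring, -0.64 (adjusted p = 0.0026) without numbers 1 and 2 and -0.57 (adjusted p = 0.0096) with zeros at a floor. AT5G53260 / AT5G53270 passed without numbers 1 and 2 (0.84, adjusted p = 0.033). AT4G20830 / AT4G20840, with 1 gene between, differed by -0.13 ± 0.21 (adjusted p = 0.68).

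Smaller falls were called for 4 pairs on different chromosomes. AT2G45180 / AT4G00165 was at 4.41, 5.94 and 7.01 in leaf and 2.8, 3.47 and 4.20 in stem, apart on both scales, with a difference of -0.48 ± 0.13 (adjusted p = 0.017; 0.058 without number 6). AT3G09830 / AT5G03320 was at 0.785, 0.991 and 1.64 in leaf and 0.532, 0.848 and 1.21 in stem, with overlap. Its difference was -0.61 ± 0.18 (adjusted p = 0.025), or -0.63, -0.55 and -0.66 within the 3 pairs of numbers. It did not pass in deposited values (adjusted p = 0.26) or without number 4, 5 or 6 (adjusted p = 0.062, 0.07 and 0.08). AT3G08740 / AT4G26310 differed by -0.52 ± 0.15 (adjusted p = 0.021) and by -0.336 (adjusted p = 0.060) without numbers 1 and 2. Leaving out number 1, 2, 4 or 6 alone also ended its call (adjusted p at most 0.063). AT1G55340 / AT3G03880 differed by -0.55 ± 0.18 (adjusted p = 0.039), and by 0.057 within numbers 1 and 2, where its leaf samples were at 1.45 and 1.34 and its stem samples at 1.38 and 1.31. With the number as a block its adjusted p was 0.079, and in deposited values it was 0.062. Leaving out any of numbers 3 to 6 ended the call, with an adjusted p of 0.095 to 0.16 and a difference of -0.40 without number 3.

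Tissue separation was partial even among called pairs. After normalization the tissues were fully apart for 11 of the 44 pairs, with stem above leaf in 3 and below it in 8, where 16.4% of all probes with 12 values did not overlap, 8.24% with stem above and 8.13% with stem below. The share among bright probes alone is not given here, so nothing is read from that count. Of the 17 called pairs, 9 kept their call when any 1 number was left out of both tissues. The very similar neighbour of the left-out number stayed in the fit, so this is a weak check. Without number 4, 5 or 6 the count of called pairs was 11, 11 and 9, where 16.5%, 15.4% and 16% of all tested probes were called. Of the bright probes, 26%, 25.3% and 26.3% were called in these settings. With the sample number as a block the count of called pairs was 15, where 26.6% of all tested probes and 41.6% of the bright probes were called. With neighbouring numbers averaged, 3 pairs passed, where 1.81% of all tested probes and 2.6% of the bright probes did: AT4G01650 / AT5G08720 (adjusted p = 0.0074), AT4G38150 / AT5G03560 (adjusted p = 0.025) and AT4G10810 / AT4G24026 (adjusted p = 0.040). These 3 also passed in the remaining settings that were run.

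Numbers 1 and 2 carried the smallest tissue difference in 10 of the 17 called pairs and in 21 of all 44 pairs. The median size of the difference in the called pairs was 0.805 within numbers 1 and 2, 1.17 within 3 and 4 and 1.27 within 5 and 6. The direction was the same within all 3 for 16 of 17, the exception being AT1G55340 / AT3G03880. It was the same for 22 of all 44 pairs. The 17 were called on these same arrays, so their agreement largely follows from that choice and tests nothing. Over the 44 pairs the differences within 3 and 4 and within 5 and 6 had a rank correlation of 0.76, against 0.63 and 0.55 with those within 1 and 2. The pairs share arrays, so these correlations are descriptions. Without numbers 1 and 2, 20 pairs (45.5%) were called, 6 higher and 14 lower, of which 15 were among the 17. In that setting 33.9% of all tested probes and 53.6% of the bright probes were called.

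The brightest probes included some without a call. AT4G25250 / AT5G51520 reached the upper end of the scale, 100, in samples 3 to 6 of both tissues, so those 8 values are only lower bounds and no fold can be given. In numbers 1 and 2 it read 77.3 and 77.9 in leaf and 79.3 and 75.0 in stem. AT4G04480 / AT4G22030 was at 6.58, 9.93 and 12 in leaf and 7.4, 8.19 and 8.62 in stem, with leaf 1 and 2 lowest of all samples. Its difference was 0.07 ± 0.18 (adjusted p = 0.80), but -0.185 without numbers 1 and 2. AT2G47320 / AT3G66654 was at 12.8, 18.9 and 21.1 in leaf and 7.45, 10.9 and 12.4 in stem, without overlap in deposited values. After normalization it overlapped and differed by -0.485 ± 0.22 (adjusted p = 0.12), against -0.74 (adjusted p = 0.0076) in deposited values. This pair was called in deposited values and not after normalization.

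Among pairs that did not pass and were below the top of the scale, the smallest differences were those of AT1G04930 / AT2G32840 (-0.03 ± 0.22), AT4G20420 / AT5G44540 (-0.045 ± 0.205), AT4G05060 / AT4G21450 (-0.05 ± 0.31) and AT2G17300 / AT4G35320 (-0.05 ± 0.19). Their deposited intensities overlapped. AT1G04930 / AT2G32840 was at 0.649, 0.926 and 1.17 in leaf and 0.857, 1.03 and 1.18 in stem. AT4G20420 / AT5G44540 was at 0.689, 1.22 and 1.88 in leaf and 0.842, 1.38 and 1.69 in stem. AT2G17300 / AT4G35320 was at 0.562, 0.971 and 1.17 in leaf and 0.829, 0.901 and 1.26 in stem. An adjusted p of 0.87 to 0.93 does not show that these were equal. In AT4G05060 / AT4G21450 the samples followed the numbers more than the tissue: numbers 1 and 2 were at 1.93 to 2.21 in both tissues, and numbers 3 to 6 at 3.57 to 6.77. AT5G09570 / AT5G64400 was at 0.757 to 0.82 in numbers 1 and 2 and at 1.73 to 2.90 in the others. Its difference was -0.17 ± 0.32 (adjusted p = 0.74), lower in stem in 6 of 6 numbers after normalization, whereas AT4G05060 / AT4G21450 was lower in 4 of 6. AT1G18270 / AT4G20930 had the largest error of the 44, -0.22 ± 0.47, with leaf 1 and 2 at 2.76 and 3.15 and the other leaf samples at 0.541 to 0.886. The remaining pairs, all without a call, were AT1G01570 / AT4G00295 (0.38 ± 0.16, higher in stem in 5 of 6 numbers), AT1G44224 / AT3G50570 (0.28 ± 0.27) and AT2G35260 / AT4G17840 (0.28 ± 0.22). AT1G15060 / AT1G73750 (0.135 ± 0.315), AT3G47380 / AT5G62350 (0.135 ± 0.18), AT4G21020 / AT5G44310 (0.11 ± 0.19) and AT1G50040 / AT3G19680 (0.08 ± 0.21) lay nearer to 0. AT4G03830 / AT4G03940 (-0.25 ± 0.24) and AT2G16460 / AT3G51090 (-0.28 ± 0.20) lay below it, the latter in 6 of 6 numbers.

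Brightness was spread widely, as a property of probes and not of transcript levels. The mean intensity over 12 arrays was under 2 for 29 of the 44 pairs, with a median of 1.47 and a range of 0.739 to 92.5, the highest being a lower bound because of the values at 100. Just inside the limit of 0.5, the lowest values were 0.529 for AT4G21020 / AT5G44310, 0.532 for AT3G09830 / AT5G03320 and 0.535 for AT2G35260 / AT4G17840. Just outside were AT3G26890 / AT5G41110 at 0.495, SPI (AT1G03060) / AT4G02660 at 0.494 and AT1G33700 / AT4G10060 at 0.488. Another 21 two-gene probes reached the limit in 9 to 11 arrays, and 373 reached it in none.

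Other probes of the same genes read differently. Of the 44 pairs, 13 had at least 1 more probe on the array that lists both of their genes, 14 probes in all, 10 of them with the same 2 genes and 4 with 1 or 2 more. None was bright enough to be a member. Their mean intensities ran from 0.00724 to 1.18, and 7 were at 0 in at least 1 array. These readings were not used to choose the members. In 10 the tissue difference could be fitted, and it had the sign of the member probe in 3: AT4G12000 / AT4G22850, AT1G20500 / 4CL8 and AT3G50140 / AT3G50190. The member probes of these 3 pairs were all called. Where the signs differed, the only called member was LIL3:1 / LIL3:2. The uncalled ones included member differences of -0.028, 0.069 and 0.077, so near 0 that a sign says little. The count of signs is therefore no measure of the calls.

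Single pairs show how far such readings can part. For AT4G04480 / AT4G22030 the bright probe differed by 0.07, while the dim probe, which read 0.479 to 0.751 in leaf against 0.286 to 0.392 in stem, was lower in stem without overlap (-1.17 ± 0.28, adjusted p = 0.0081). For AT4G03830 / AT4G03940 the member probe differed by -0.25, and the others by 1.28 ± 0.47 (adjusted p = 0.060) and 0.07 ± 0.22 (adjusted p = 0.84). For LIL3:1 / LIL3:2 the other probe lay between 0 and 0.486, with a difference of 0.36 ± 0.86 (adjusted p = 0.79) against -0.79 for the member. The other probe of AT2G18980 / AT4G30170 was at 0 in 10 of 12 arrays and at most 0.075. Over the whole table, 89 of 558 distinct gene pairs had more than 1 probe. Of the 51 combinations in which both probes were tested, 21 had the same sign, the median gap between their differences was 1.07, and in 4 both were called, 3 of them in the same direction. In 0 of 91 combinations were both probes at 0.5 or more throughout. Whether such probes bind different parts or different members of a pair was not tested, and the probe sequences were not used here.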

How the data were processed

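Total RNA of 6 leaf and 6 stem samples was measured on single-channel arrays. The deposited values are intensities on a linear scale from 0 to 100, and the sources used here do not give how the authors made them, what 0 and 100 stand for or the genome build. Genes come from the array's deposited annotation, and gene order, names and synonyms from the TAIR10.1 RefSeq gene table. Zeros were taken as missing, and log2 intensities were quantile-normalized because array medians spanned 1.42 on the log2 scale. The level of the arrays went with tissue, with 658 to 785 zeros per leaf array and 479 to 536 per stem array. Over all tested probes the median stem minus leaf difference was 0.625 in deposited values and 0.128 after quantile normalization. Scaling and a general difference between the tissues therefore cannot be told apart here. Probes with at least 4 values above 0 in each tissue were fitted in limma 3.58.1 (R 4.3.3) with trended, robust eBayes (statmod 1.5.0) and Benjamini-Hochberg adjustment over 2657 probes. The code was tested on simulated data with noise independent between arrays. Neighbouring numbers here were very alike, so the rate of false calls in that test does not carry over to these data. Same-numbered leaf and stem samples deviated together only weakly, with correlations of 0.171 to 0.262 over 1870 probes. Differently numbered samples had correlations of -0.165 to 0.153. The sample number was therefore also fitted as a block, though the labels do not say that same numbers belong together. Other alternatives changed the normalization, variance, zeros, filter and samples. The number of arrays limits the precision. Members and gene lists were chosen with earlier results of these data known. The rule for values in full took up to 8 called rises, 8 called falls, the 5 brightest pairs, the 5 smallest differences without a call and pairs with symbols of fixed classes. Values of pairs beyond this rule, and the chloroplast grouping, were chosen after values were seen. Likeness of proteins was planned and not run, since protein sequences were not used here.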

Additional observations from a re-analysis of the deposited data

Results flagged for a closer look

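In 2 of 88 groups of 6 values (44 pairs in each tissue) a single sample stood far from the others by Dixon's criterion on the gap over the range. For independent normal values chance flags about 1 in 20 groups. Neighbouring numbers were very alike here, so that rate does not apply, and whether 2 of 88 is an excess cannot be told. For AT4G04480 / AT4G22030, stem sample 6 was at 2.90 on the normalized log2 scale and the other stem samples at 3.13 to 3.21 (deposited intensity 7.4). For AT3G50140 / AT3G50190, leaf sample 6 was at 0.96 and the other leaf samples at 0.49 to 0.66 (deposited intensity 1.78).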

How the results depend on the processing

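Of the 17 called pairs, 0 changed direction in any alternative run, and 3 kept their call in all of them. Of the 27 pairs without a call, 9 passed in some alternative: in deposited values AT5G54350 / AT5G54360, AT2G47320 / AT3G66654 and AT2G35260 / AT4G17840 (0.56, adjusted p = 0.03); with median centring the first 2 of these, UFO / AT5G15710 (-0.90, adjusted p = 0.049), AT2G16460 / AT3G51090 (-0.90, adjusted p = 0.028) and AT4G04480 / AT4G22030 (-0.75, adjusted p = 0.047); without numbers 1 and 2 AT5G53260 / AT5G53270, ATPC2 / ATPC1, UFO / AT5G15710, AT5G54350 / AT5G54360 and AT2G47320 / AT3G66654; and without moderation AT1G01570 / AT4G00295 (0.38, adjusted p = 0.042). AT5G54350 / AT5G54360 also passed without moderation (adjusted p = 0.021), with zeros at a floor (0.0096) and with all 12 values above 0 (0.044). It passed as well without number 1 (adjusted p = 0.031) or 2 (0.039). Leaving out each number in turn gave 9 to 17 called pairs, 3 to 6 higher and 6 to 11 lower. The median difference was then -0.126 to -0.004, with 375 to 655 calls over all probes. Averaging neighbouring numbers left 3 called pairs (1 higher, 2 lower) and 46 called probes, with fewer samples. Median centring left 1 pair higher and moved the median to -0.609. With the sample number as a replicate block, 15 pairs (5 higher, 10 lower), 41.6% of the bright probes and 26.6% of all tested probes were called: AT2G26500 / AT5G35660 and AT1G55340 / AT3G03880 lost their call and no other pair's call changed. A brightness limit of 0.25 gave 83 pairs and a limit of 1 gave 18. AT4G25250 / AT5G51520, at 100 in both tissues, gives no difference. Of the other 26 pairs without a call, 16 changed sign somewhere, 11 of them in a setting other than median centring; the cause was not tested. Median centring moved the members' median from -0.052 to -0.609, and all its sign changes were from higher to lower in stem. In deposited values the pairs that changed sign were AT4G20420 / AT5G44540 (0.11), AT2G17300 / AT4G35320 (0.18), AT4G04480 / AT4G22030 (-0.18), AT1G04930 / AT2G32840 (0.24) and AT4G36190 / AT4G36195 (0.059). With median centring they were FUG1 / AT4G11160 (-0.17), AT1G01570 / AT4G00295 (-0.23), AT4G04480 / AT4G22030 (-0.75), AT1G44224 / AT3G50570 (-0.20), AT1G50040 / AT3G19680 (-0.21), AT2G35260 / AT4G17840 (-0.015), AT1G15060 / AT1G73750 (-0.30), AT5G53260 / AT5G53270 (-0.25), AT4G21020 / AT5G44310 (-0.19) and AT3G47380 / AT5G62350 (-0.30). Without numbers 1 and 2 they were AT4G04480 / AT4G22030 (-0.185) and AT1G18270 / AT4G20930 (0.11). With zeros at a floor they were FUG1 / AT4G11160 (-0.012), AT4G04480 / AT4G22030 (-0.064) and AT1G50040 / AT3G19680 (-0.025). Leaving out 1 number turned 8 pairs, whose ranges were AT1G04930 / AT2G32840 -0.172 to 0.078, AT1G15060 / AT1G73750 -0.053 to 0.23, AT2G17300 / AT4G35320 -0.16 to 0.074, AT4G04480 / AT4G22030 -0.042 to 0.176, AT4G05060 / AT4G21450 -0.114 to 0.014, AT4G20420 / AT5G44540 -0.095 to 0.004, AT4G21020 / AT5G44310 -0.012 to 0.20 and AT4G36190 / AT4G36195 -0.122 to 0.010. The alternatives for likeness of proteins were not run. Signal over background is not given in the sources used here, so its limit is unknown.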
